A study of Mus musculus with 12 samples.

Results

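The 9 genes described here encode proteins of mouse milk: the caseins Csn1s1, Csn1s2a, Csn2 and Csn3, the whey proteins Wap and Lalba, the iron-binding protein Ltf, the protease inhibitor Wfdc18 and the mucin-like glycoprotein Glycam1. They were taken by name from a table of 55487 genes, 1 row each, to follow mammary epithelial RNA in fibroblast samples. The samples were cancer-associated fibroblasts from mammary tumours of 3 untreated FVB MMTV-PyMT mice, numbered 27, 30 and 31 and 10 weeks old. In this model the MMTV promoter, which is active mainly in mammary epithelium, drives the polyoma middle T oncogene, so every group carries the transgene and no tumour-free tissue was compared. Viable cells without CD45, CD31 or EPCAM at the surface and with PDGFRb were sorted into 4 gates. The icaf gate held Ly6C+ cells, the vcaf gate Ly6C-, CD146+, PDGFRa- cells, and the m2cafneg and m2cafpos gates Ly6C-, CD146-, PDGFRa+ cells without and with NCAM. Each mouse gave 1 RNA-seq library per gate, 12 in all.

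Milk proteins are made by the luminal secretory cells of the mammary gland. Prolactin, acting through its receptor, the kinase JAK2 and the transcription factor STAT5, together with glucocorticoids and insulin, turns on their genes in pregnancy and lactation, and virgin glands and PyMT tumours can hold some of the same RNA. Caseins pack calcium phosphate into micelles, and kappa-casein, the product of Csn3, coats the micelle and keeps it in solution. Fibroblasts and pericytes are not a known source of caseins, and the EPCAM-negative sort is meant to leave epithelial cells out.

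The casein genes lay together on chromosome 5 (GRCm38). Csn1s1 (87666208 to 87682578, plus strand), Csn2 (87692624 to 87699630, minus strand), Csn1s2a (87774567 to 87788797, plus strand) and Csn3 (87925579 to 87932665, plus strand) spanned 266 kb. The annotation placed 14 genes in that span, 7 of them protein coding, and the 4 caseins were the only ones with a mean of at least 1 CPM (reads per 1000000 reads assigned to genes). Between them, the casein gene Csn1s2b averaged 0.234 CPM, Odam 0.115 CPM and Prr27 0.0506 CPM. The other members lay apart: Wap on chromosome 11 (6635482 to 6638637), Wfdc18 on chromosome 11 (83709015 to 83711348), Lalba on chromosome 15 (98480400 to 98482721), Glycam1 on chromosome 15 (103562759 to 103565081) and Ltf on chromosome 9 (111019271 to 111042767).

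The 250 bases before the RefSeq start sites of the members (GRCm38.p6) were searched on both strands for sites of the factors that drive lactation. The table of promoters held 8 of the 9 members, all but Csn3. The STAT5 motif TTCNNNGAA was found in 3 of the 8, against 7.02% of all 32851 promoters in the table. In Csn1s1 it lay 100 to 92 bases before the start, in Csn2 93 to 85 bases and in Glycam1 145 to 137 bases. The 29 bases around each match are shown to compare the sites, with the motif in capitals, 5′ to 3′ on the strand of the gene. They are chr5:87666098-87666126 (plus strand), chr5:87699500-87699528 (minus strand) and chr15:103565208-103565236 (minus strand).
Csn1s1: tttgtaacaaTTCTTAGAAtttatgtaaa
Csn2: tcacgtagacTTCTTGGAAttgaagggac
Glycam1: gccaactcatTTCCCAGAAacaccaattc
The Csn2 site also lay in the first exon of 1 alternative Csn2 transcript of the annotation. The whole 250-base windows of Csn1s1 (chr5:87665958-87666207, plus strand) and Glycam1 (chr15:103565082-103565331, minus strand) are shown as the casein and the non-casein promoter with this motif that hold no annotated exon.
Csn1s1: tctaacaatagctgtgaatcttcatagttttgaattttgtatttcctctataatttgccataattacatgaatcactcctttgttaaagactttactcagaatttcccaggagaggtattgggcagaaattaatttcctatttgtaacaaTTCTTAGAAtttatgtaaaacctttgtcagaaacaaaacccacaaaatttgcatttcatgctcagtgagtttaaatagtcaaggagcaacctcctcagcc
Glycam1: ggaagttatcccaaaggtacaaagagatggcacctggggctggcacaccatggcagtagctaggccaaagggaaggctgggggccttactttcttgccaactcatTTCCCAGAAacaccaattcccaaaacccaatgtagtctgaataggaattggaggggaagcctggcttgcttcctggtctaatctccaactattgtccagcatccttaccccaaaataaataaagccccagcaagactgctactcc
Of the other motifs searched, the C/EBP motif TTGCNNAA was found in Ltf only (9.56% of all promoters), the glucocorticoid receptor hexamer TGTTCT in Csn1s2a only (16.1%), and the NF1 motif in none (0.0365%). A match is a description of the letters in the window.

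The libraries held 43898839 to 55363203 reads assigned to genes, and 1 read stood for about 0.02 CPM. All 9 members had at least 1 CPM in at least 3 libraries and were tested, and the lowest count of any member in any library was 16 reads (Glycam1 in icaf of mouse 27). Marker genes of the sorted cells were abundant: 10 fibroblast and pericyte genes summed to between 41421 and 133893 CPM per library. Pdgfrb, required by the sort, averaged 188 CPM in icaf, 691 in m2cafneg, 839 in m2cafpos and 2105 in vcaf. These are bulk samples, so more epithelial cells in a gate and more RNA per epithelial cell cannot be told apart. Same-numbered libraries came from the same mouse, and p-values between gates measure only the spread among 3 animals.

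Milk protein RNA was found in all 4 gates, and it was high in vcaf and m2cafneg and low in icaf and m2cafpos. The 9 genes together took 0.685% to 1.52% of all reads in vcaf and 0.488% to 1.17% in m2cafneg. They took 0.103% to 0.292% in icaf and 0.0585% to 0.283% in m2cafpos, so the libraries of the first pair of gates did not overlap those of the second. Mean sums were 1697 ± 1123 CPM (SD, n = 3) in m2cafpos, 1721 ± 1042 in icaf, 7894 ± 3477 in m2cafneg and 10389 ± 4282 in vcaf. Neighbours in that order, vcaf beside m2cafneg and icaf beside m2cafpos, differed by less than the SD of either gate.

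**Figure D1:**
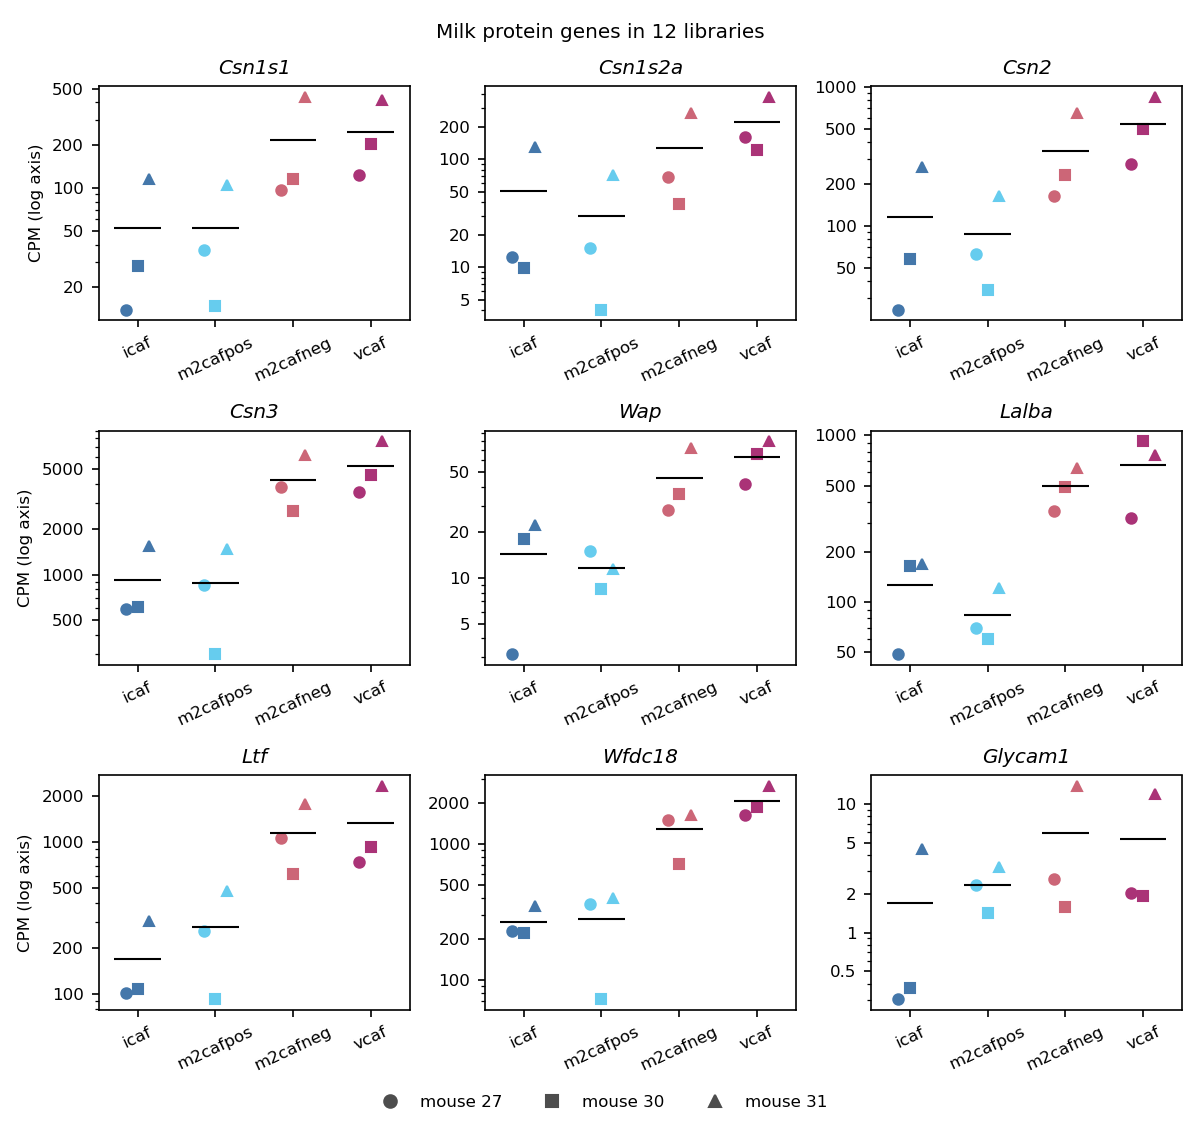
Level of each milk protein gene in CPM (log axis) in the 12 libraries, by gate, with 1 symbol per mouse and a bar at the mean of 3 libraries. For Csn3, all 6 libraries of m2cafneg and vcaf lie between 2624 and 7651 CPM and all 6 of icaf and m2cafpos between 296 and 1560.5 CPM, while the Glycam1 libraries of the gates overlap.

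Csn3, the kappa-casein gene, was the most abundant member in CPM in every gate and ranked 8th among all genes by mean CPM in vcaf, 13th in m2cafneg, 116th in m2cafpos and 122nd in icaf. In mice 27, 30 and 31 it was measured at 3549, 4556 and 7651 CPM in vcaf and at 3832, 2624 and 6209 CPM in m2cafneg. The icaf libraries held 593, 606 and 1560.5 CPM and the m2cafpos libraries 854, 296 and 1474 CPM in the same order of mice. Every vcaf and m2cafneg library was thus above every icaf and m2cafpos library, and mouse 31 was the highest in each gate. The log2 fold change, on log2(CPM + 1) as throughout, was 2.59 ± 0.55 (SE) for vcaf against icaf (limma, adjusted p = 0.00158) and 2.79 ± 0.55 for vcaf against m2cafpos (limma, adjusted p = 0.000831). For m2cafneg it was 2.27 ± 0.55 against icaf (limma, adjusted p = 0.00885) and 2.46 ± 0.55 against m2cafpos (limma, adjusted p = 0.0089).

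The calcium-sensitive caseins were lower and varied more between mice. Csn2, the beta-casein gene, was measured in mice 27, 30 and 31 at 24.9, 57.6 and 264 CPM in icaf, 62.3, 34.8 and 164 in m2cafpos, 164, 234 and 647 in m2cafneg and 279, 498 and 850.4 in vcaf. Vcaf stood above icaf and m2cafpos in all libraries, but the m2cafneg library of mouse 27 lay below the icaf library of mouse 31. Csn1s2a, an alpha-s2-like casein gene, had the widest range of the 9: 12.4, 9.89 and 129.7 CPM in icaf, 15.2, 4.08 and 70.8 in m2cafpos, 69.2, 38.4 and 270.4 in m2cafneg and 160.1, 122 and 379 in vcaf. Its highest library was 93.0 times its lowest, and its vcaf library of mouse 30 lay below its icaf library of mouse 31. Csn1s1, the alpha-s1-casein gene, was measured at 13.9, 28.3 and 116 CPM in icaf, 36.7, 14.9 and 105 in m2cafpos, 97.1, 115 and 439 in m2cafneg and 123, 202 and 418 in vcaf. Again all vcaf libraries, but not all m2cafneg libraries, lay above those of icaf and m2cafpos. All 3 rose in vcaf against icaf by 2.56 to 2.88 and against m2cafpos by 2.46 to 3.44 on the log2 scale (limma, adjusted p of 0.00852 to 0.0336). These calls depended on the test and on single libraries. In edgeR on the recovered reads none of the 3 passed against icaf (adjusted p of 0.099 to 0.242) or m2cafpos (0.0667 to 0.143). Without icaf of mouse 27 all 3 also lost the call against icaf (limma, adjusted p of 0.0516 to 0.113). Csn1s1 and Csn1s2a lost it without icaf of mouse 30 or vcaf of mouse 31, Csn1s2a without vcaf of mouse 27, and both lost the call against m2cafpos without m2cafpos of mouse 30 or vcaf of mouse 31. Without a filter on low values Csn1s1 lost both calls (0.0618 and 0.0668) and Csn1s2a that against icaf (0.0988), and with median-of-ratios scaling Csn1s2a lost the call against icaf (0.0728) and Csn1s1 that against m2cafpos (0.0778). In m2cafneg the 3 caseins did not pass the test, which had no mouse term. Csn1s1 differed from icaf by 2.20 ± 0.83 (limma, adjusted p = 0.065), Csn2 by 1.99 ± 0.80 (0.0811) and Csn1s2a by 1.77 ± 1.06 (0.238). With mouse as a block, all 3 passed in m2cafneg against icaf (limma, adjusted p of 0.000298 to 0.00206; 34.9% of all genes passed). They also passed in vcaf against icaf with the block (limma, adjusted p of 2.25e-05 to 3.77e-05; 63.3%).

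The whey protein genes passed in vcaf and in m2cafneg, Wap in m2cafneg only narrowly. Lalba encodes alpha-lactalbumin, which turns the galactosyltransferase B4galt1 into lactose synthase. It was measured at 48.6, 164 and 169 CPM in icaf, 70.0, 59.8 and 121 in m2cafpos, 353, 491 and 641 in m2cafneg and 319, 921 and 763 in vcaf. The 6 high and the 6 low libraries did not overlap, and here mouse 30, not mouse 31, gave the highest vcaf library. Wap, the whey acidic protein gene, was measured at 3.13, 18.0 and 22.2 CPM in icaf, 14.99, 8.40 and 11.5 in m2cafpos, 28.1, 36.0 and 72.7 in m2cafneg and 41.8, 66.1 and 79.7 in vcaf. Its 6 high and 6 low libraries did not overlap either. Against icaf and m2cafpos, Lalba rose by 2.45 and 2.91 in vcaf and by 2.11 and 2.58 in m2cafneg, and Wap by 2.33 and 2.32 in vcaf and by 1.81 and 1.80 in m2cafneg (limma, adjusted p of 0.000258 to 0.0317). The Wap call in m2cafneg was lost in edgeR (adjusted p = 0.0722 against icaf and 0.0738 against m2cafpos) and, in limma, without a filter on low values (0.0893 and 0.105). Against icaf it was also lost without icaf of mouse 27 (1.03 on the log2 scale; limma, adjusted p = 0.0742) or m2cafneg of mouse 31 (0.108). Against m2cafpos it was also lost with median-of-ratios scaling (0.0747) and without m2cafneg of mouse 30 or 31 or any one of the m2cafpos libraries (0.0518 to 0.119).

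Ltf encodes lactoferrin, an iron-binding antimicrobial protein of milk that neutrophils also store. Its levels were 102, 109 and 301 CPM in icaf, 258, 92.7 and 479 in m2cafpos, 1068, 620.04 and 1766 in m2cafneg and 737, 927 and 2328 in vcaf. Wfdc18, which encodes a small protein with a whey acidic protein domain, had levels of 229.7, 223 and 353 CPM in icaf, 364, 72.2 and 401 in m2cafpos, 1496, 716 and 1637 in m2cafneg and 1641, 1871 and 2669 in vcaf. Both genes were higher in every vcaf and m2cafneg library than in any icaf or m2cafpos library. Ltf rose by 2.96 ± 0.62 and Wfdc18 by 2.94 ± 0.54 in vcaf against icaf (limma, adjusted p = 0.00144 and 0.000559). The Ltf call in m2cafneg against m2cafpos, 2.22 ± 0.62 (limma, adjusted p = 0.0226), was lost in edgeR (adjusted p = 0.093), without a filter (0.0811) and without m2cafneg of mouse 31 or m2cafpos of mouse 27 or 30 (limma, 0.0553 to 0.086).

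Glycam1, whose product occurs in milk and, in another modified form, on high endothelial venules, was the scarcest member and the only one without a call in level between gates. It was measured at 0.304, 0.373 and 4.44 CPM in icaf, 2.33, 1.41 and 3.23 in m2cafpos, 2.61, 1.57 and 13.8 in m2cafneg and 2.02, 1.92 and 11.995 in vcaf. All 4 gates overlapped, and mouse 31 was highest in each. Its log2 fold change in vcaf was 1.19 ± 0.74 against icaf (limma, adjusted p = 0.181) and 0.59 ± 0.74 against m2cafpos (0.492). Since 1 CPM was added before the log, changes of this gene are understated.

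Levels of different genes can be compared only per length. CPM was therefore divided by the length of the longest consensus coding transcript in kb and averaged within each gate. Csn3 stood at 576 CPM per kb in icaf, 548 in m2cafpos, 2645 in m2cafneg and 3291 in vcaf, and Wfdc18 at 515, 535, 2463 and 3955. These were the highest members in every gate, with Csn3 first in 3 gates and Wfdc18 first in vcaf, and with SDs wider than the gap between them. Lalba followed in every gate (108 to 866 CPM per kb). Ltf and Csn2 changed places: Csn2 was above Ltf in icaf (87.0 and 62.1) and below it in m2cafpos, m2cafneg and vcaf. Csn1s2a was above Csn1s1 in icaf and vcaf and below it in m2cafpos and m2cafneg. Wap (21.1 to 114) and Glycam1 (2.71 to 9.52) were the lowest in every gate.

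Counted over the 9 members, 8 were higher in vcaf than in icaf, 8 in vcaf than in m2cafpos, 5 in m2cafneg than in icaf and 5 in m2cafneg than in m2cafpos (limma, adjusted p under 0.05), and none was lower. Of all 15456 genes tested, 46.1%, 55.5%, 20.9% and 22.6% were higher in these comparisons, 13.9%, 12.4%, 8.77% and 3.51% were lower, and 59.9%, 67.9%, 29.7% and 26.1% passed in either direction. The median log2 fold change of the members was 2.59, 2.77, 2.11 and 2.22, beside 0.36, 0.51, 0.12 and 0.23 for all genes tested. Csn3, Wap, Lalba, Ltf and Wfdc18 passed in all 4. The libraries of both gates did not overlap for 7, 8, 5 and 5 members, against 49.3%, 58.2%, 29.2% and 36.4% of all genes with the first gate higher. With the libraries scaled by the median of ratios, 24.1%, 22.8%, 16.5% and 8.56% of all genes were higher and 24.5%, 23.6%, 13.6% and 8.42% lower, and then 7, 7, 5 and 4 members were higher.

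With mouse as a block, 9 members were higher in vcaf than in icaf (63.3% of all genes passed in either direction) and 8 in vcaf than in m2cafpos (71.1%). Blocked, 9 members were higher in m2cafneg than in icaf (34.9%) and 8 in m2cafneg than in m2cafpos (33.2%). Glycam1 rose in vcaf against icaf with the block (limma, adjusted p = 0.00605). The counts also depended on single libraries: 5 members were higher in vcaf than in icaf without icaf of mouse 27, 8 in m2cafneg than in icaf without icaf of mouse 31, and 3 in m2cafneg than in m2cafpos without m2cafneg of mouse 31, m2cafpos of mouse 27 or m2cafpos of mouse 30. In those alternatives every called member was higher in the gate named first.

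Between vcaf and m2cafneg none of the 9 passed (37.9% of all genes did, 26.6% higher and 11.3% lower, or 9.79% and 15.7% with median-of-ratios scaling), with log2 differences from -0.09 for Glycam1 to 1.11 for Csn1s2a. Between m2cafpos and icaf none passed either (23.9% of all genes did, 8.86% higher and 15% lower, or 11.7% and 9.84%), with differences from -0.56 for Csn1s2a to 0.60 for Glycam1. In both comparisons, 0 members had an unadjusted p under 0.05 in limma and 0 in edgeR on the recovered reads. With mouse as a block, Csn1s2a was higher in vcaf than in m2cafneg (limma, adjusted p = 0.0245; 44.9% of all genes passed), the single call of the 9 in that comparison, and none passed between m2cafpos and icaf (28.4%).

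**Figure D2:**
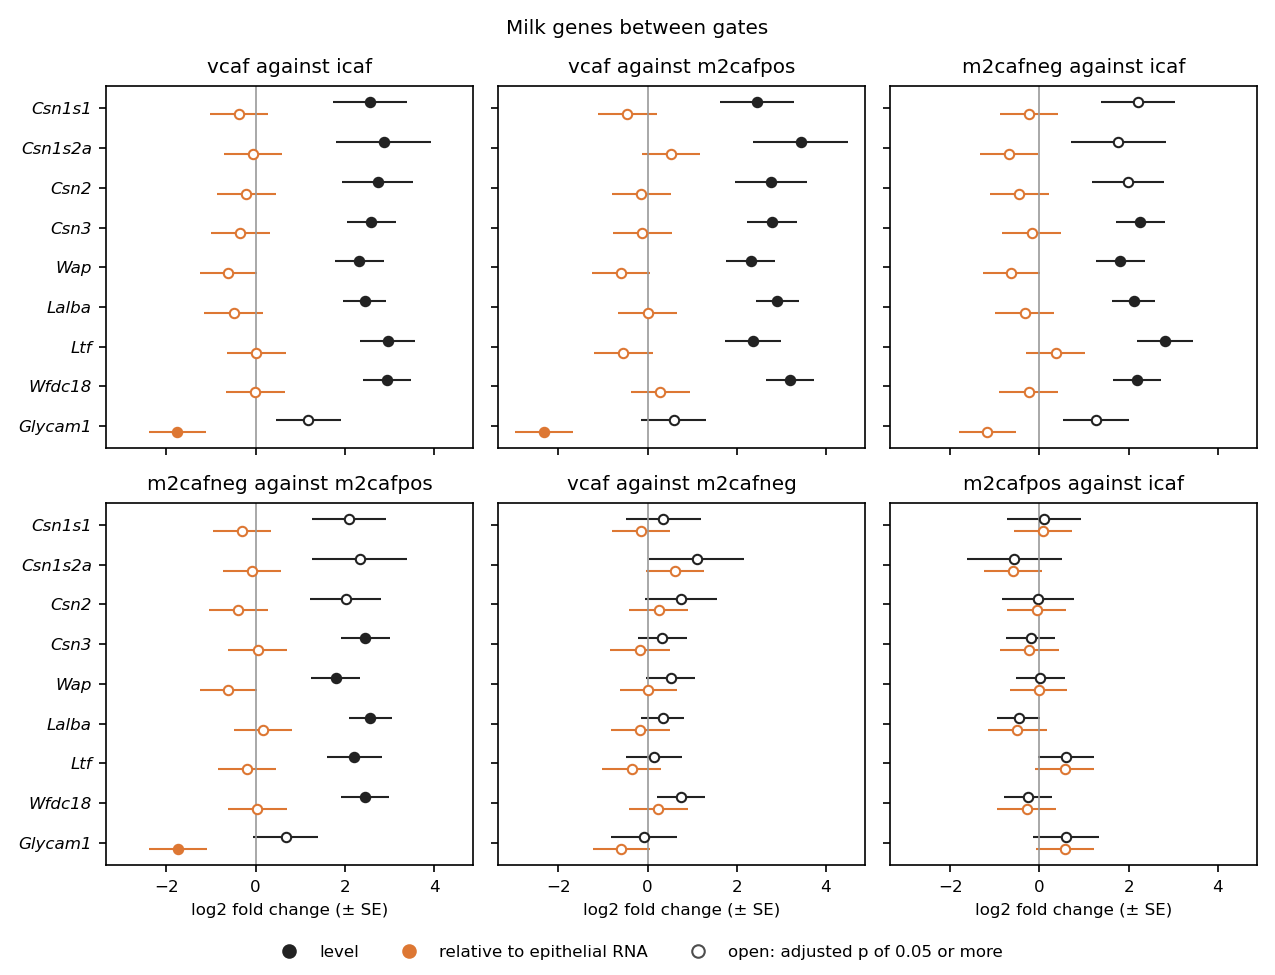
Log2 fold changes of the 9 genes in the 6 comparisons of gates, first gate minus second, with SE bars, for the level (black) and relative to the summed CPM of 16 epithelial genes (orange). Filled points have an adjusted p under 0.05. In level 8, 8, 5 and 5 members are filled in the first 4 panels and none in the last pair, and relative to epithelial RNA only Glycam1 is filled, in 3 panels.

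Inside each mouse, m2cafneg and vcaf stood above icaf and m2cafpos for nearly all members. All 9 members were higher in m2cafneg than in m2cafpos in each of the 3 mice, with a median fold of 4.11 in mouse 27, 7.74 in mouse 30 and 4.17 in mouse 31. The gates differ in the labels only by NCAM. All 9 were also higher in vcaf than in icaf and in m2cafneg than in icaf in each mouse, with median folds of 7.26, 7.52 and 3.61 and of 6.97, 4.05 and 3.79. Against m2cafpos, vcaf was higher for all 9 in mice 30 and 31 and for 8 in mouse 27, where Glycam1 was the exception. Between m2cafpos and icaf the order varied with the mouse for every member. Csn1s2a, Csn2, Wap and Wfdc18 were higher in vcaf than in m2cafneg in all 3 mice, and for the other members this order varied. In mice 27, 30 and 31, 5, 9 and 7 members were higher in vcaf than in m2cafneg, and 9, 1 and 2 were higher in m2cafpos than in icaf. The share of all genes higher inside each mouse was not computed. Over all genes tested the median log2 fold change was 0.23 for m2cafneg against m2cafpos and 0.36 for vcaf against icaf. It was 0.12 for m2cafneg against icaf, 0.51 for vcaf against m2cafpos, 0.26 for vcaf against m2cafneg and -0.11 for m2cafpos against icaf.

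The members followed the general epithelial genes. A list of 16 luminal and pan-epithelial genes without any milk gene, led by the keratin genes Krt18 and Krt8, by Epcam and by the tight junction gene Cldn3, summed to between 3892 and 7274 CPM in vcaf and 2443 and 4984 in m2cafneg. It summed to between 406 and 1106 CPM in icaf and 292 and 1218 in m2cafpos. In limma all 16 were higher in vcaf than in icaf (46.1% of all genes were) and m2cafpos (55.5%). All 16 were also higher in m2cafneg than in icaf (20.9%) and m2cafpos (22.6%). Between vcaf and m2cafneg 0 passed (37.9% of all genes did), and between m2cafpos and icaf 0 (23.9%). Epcam, whose protein was sorted against, was at 546 CPM in vcaf and 71.3 CPM in icaf on average.

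Set beside these genes, the milk protein sum overlapped between all gates. It was 253%, 216% and 264% of the epithelial sum in icaf of mice 27, 30 and 31, 222%, 200.2% and 232% in m2cafpos, 214%, 199.5% and 235% in m2cafneg and 170.4%, 235% and 208% in vcaf. Across mice no gate stood apart in these percentages, whereas the milk sum itself ran from 585 to 15151 CPM. Inside each mouse, however, the percentage in icaf lay above those in m2cafneg and m2cafpos. That in vcaf lay below icaf in mice 27 and 31 and above it in mouse 30. The order of these percentages inside mice was not tested. Csn3 alone made up 49.7% to 57.7% of the milk sum in all 12 libraries.

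**Figure D3:**
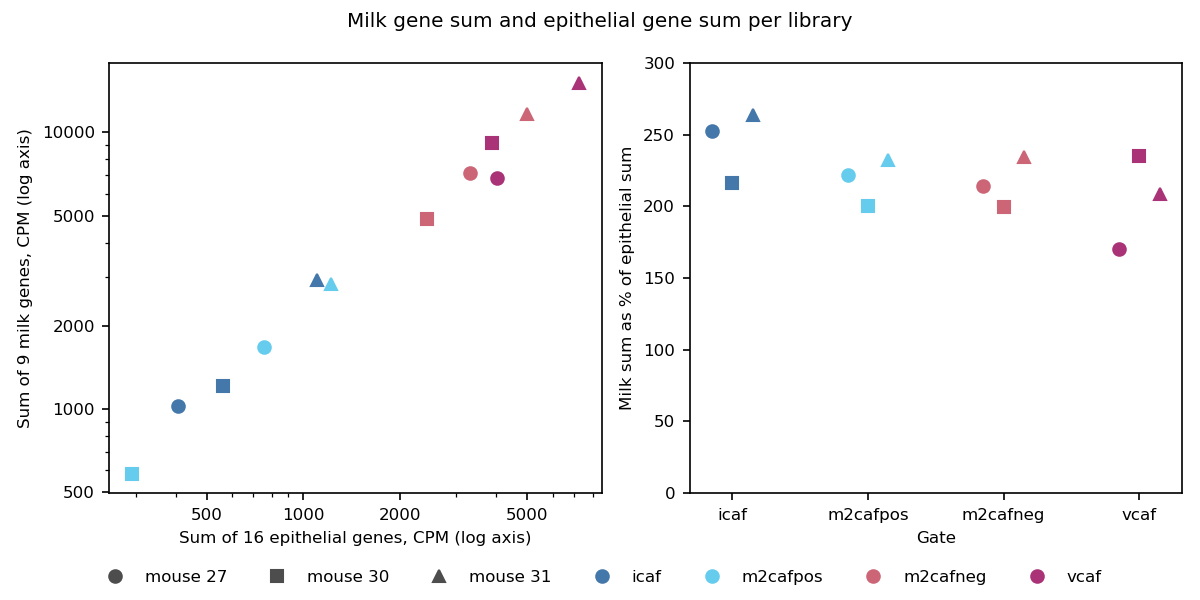
Left, the summed CPM of the 9 milk genes against that of 16 epithelial genes in each library (both log axes), coloured by gate with 1 symbol per mouse; the 12 points rise together from 585 to 15151 CPM of milk RNA. Right, the same sum as a percentage of the epithelial sum by gate, between 170.4% and 264% in all libraries.

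Tested relative to epithelial RNA, that is on log2(CPM + 1) less the log2 epithelial sum, 8 of the 9 members passed in none of the 6 comparisons (limma). Only Glycam1 passed, lower in vcaf than in icaf by -1.75 ± 0.65 (limma, adjusted p = 0.00802), in vcaf than in m2cafpos by -2.32 ± 0.65 (0.000599) and in m2cafneg than in m2cafpos by -1.74 ± 0.65 (0.00858). In these comparisons 90.7%, 90.9% and 93% of all genes passed, with an all-gene median of -2.58, -2.40 and -2.18. In m2cafneg against icaf 90.8% of all genes but no member passed, in vcaf against m2cafneg 6.01% and in m2cafpos against icaf 3.15%. With mouse as a block, Glycam1 was also lower in m2cafneg than in icaf, by -1.17 (limma, adjusted p = 0.00724). The Glycam1 call of vcaf against icaf rested on the added 1 CPM: with 0.1 CPM added the difference was -0.97 (limma, adjusted p = 0.178), while those against m2cafpos were -2.21 and -1.62 and still passed. Leaving out m2cafneg of mouse 27, no member passed between m2cafneg and m2cafpos. As a percentage of the epithelial sum Glycam1 stood at 0.308 and 0.483 in m2cafpos of mice 27 and 30, against 0.0494 to 0.0788 in the other gates of those mice, and at 0.165 to 0.401 in the 4 gates of mouse 31.

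In the moderated fit the SE of these differences is drawn toward the spread of all genes, so each member was also fitted with its own spread, an alternative chosen after seeing the data. Csn3 then differed by -0.35 in vcaf against icaf, with a 95% interval of -0.68 to -0.01 (linear model per gene across all genes, limma lmFit without moderation, adjusted p = 0.0496; 90.4% of all genes passed). Its interval was -0.50 to 0.17 between vcaf and m2cafneg and -0.28 to 0.39 between m2cafneg and m2cafpos. Ltf was lower in vcaf than in m2cafpos by -0.54, with an interval of -1.07 to -0.02 (limma, the same fit, adjusted p = 0.0487; 89.7%). Against icaf, Ltf in m2cafpos was higher by 0.56, with an interval of 0.04 to 1.09 that leaves out 0, but did not pass over all genes (limma, the same fit, adjusted p = 0.754; 0.155% of all genes passed). Glycam1 kept its 3 calls in this fit (limma, adjusted p of 0.00814 to 0.0205; 91.3% of all genes passed in m2cafneg against m2cafpos). No member passed in m2cafneg against icaf (90.4% of all genes) or vcaf against m2cafneg (2.36%). The intervals of the calcium-sensitive caseins were wide, for example -1.87 to 1.74 for Csn1s2a in vcaf against icaf.

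For Lalba and the calcium-sensitive caseins, the level relative to Csn3 depended mostly on the mouse. Lalba stood at 8.2%, 8.2%, 9.22% and 8.99% of Csn3 CPM in icaf, m2cafpos, m2cafneg and vcaf of mouse 27, and at 10.8%, 8.2%, 10.3% and 9.98% in mouse 31. In mouse 30 it stood at 27.1%, 20.2%, 18.7% and 20.2%, above every library of the other mice. Of the sum of squares of this log ratio over the 12 libraries, 93.4% lay between mice and 2.7% between gates.

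The calcium-sensitive caseins also differed by mouse, each in its own way. Csn1s1 was at 5.46% to 7.42% of Csn3 in mouse 31, 4.38% to 5.02% in mouse 30 and 2.35% to 4.3% in mouse 27, with no overlap. Csn1s2a was at 4.35% to 8.31% in mouse 31, 1.38% to 2.68% in mouse 30 and 1.78% to 4.51% in mouse 27, where the vcaf library was the highest and overlapped mouse 31. For Csn1s1, Csn1s2a and Csn2, 80.1%, 71.7% and 70.4% of the sum of squares lay between mice. Csn2 in mouse 27 (4.2% to 7.86%) stayed below every library of mice 30 and 31 (8.9% to 16.9%), and these overlapped each other.

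Ltf differed from these genes, with 78.4% of the sum of squares between gates. It was at 17.1%, 17.9% and 19.3% of Csn3 in icaf and at 30.2%, 31.3% and 32.5% in m2cafpos, and these ranges did not overlap. Of 12 neutrophil genes listed, 5 were abundant enough to test between the same gates, and Ngp, Camp, Ly6g and S100a9 were not. Of these 5, 3 were higher in m2cafpos, Mmp9, Mmp8 and Mpo (limma, 8.86% of all genes were). The 12 genes summed to 18.9 to 21.9 CPM in m2cafpos and 2.85 to 5.74 CPM in icaf. Ltf itself stood at 92.7 to 479 CPM in m2cafpos and 102 to 301 CPM in icaf. Neutrophils also make Ltf, and their part in the share was not tested. In m2cafneg it was at 23.6% to 28.4% and in vcaf at 20.3% to 30.4%. For Wfdc18 (22.6% to 46.2% of Csn3), Wap (0.529% to 2.97%) and Glycam1 (0.0422% to 0.476%) neither factor held more than 54.5%. Glycam1 also had more between gates (47.4%) than between mice (27.0%).

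**Figure D4:**
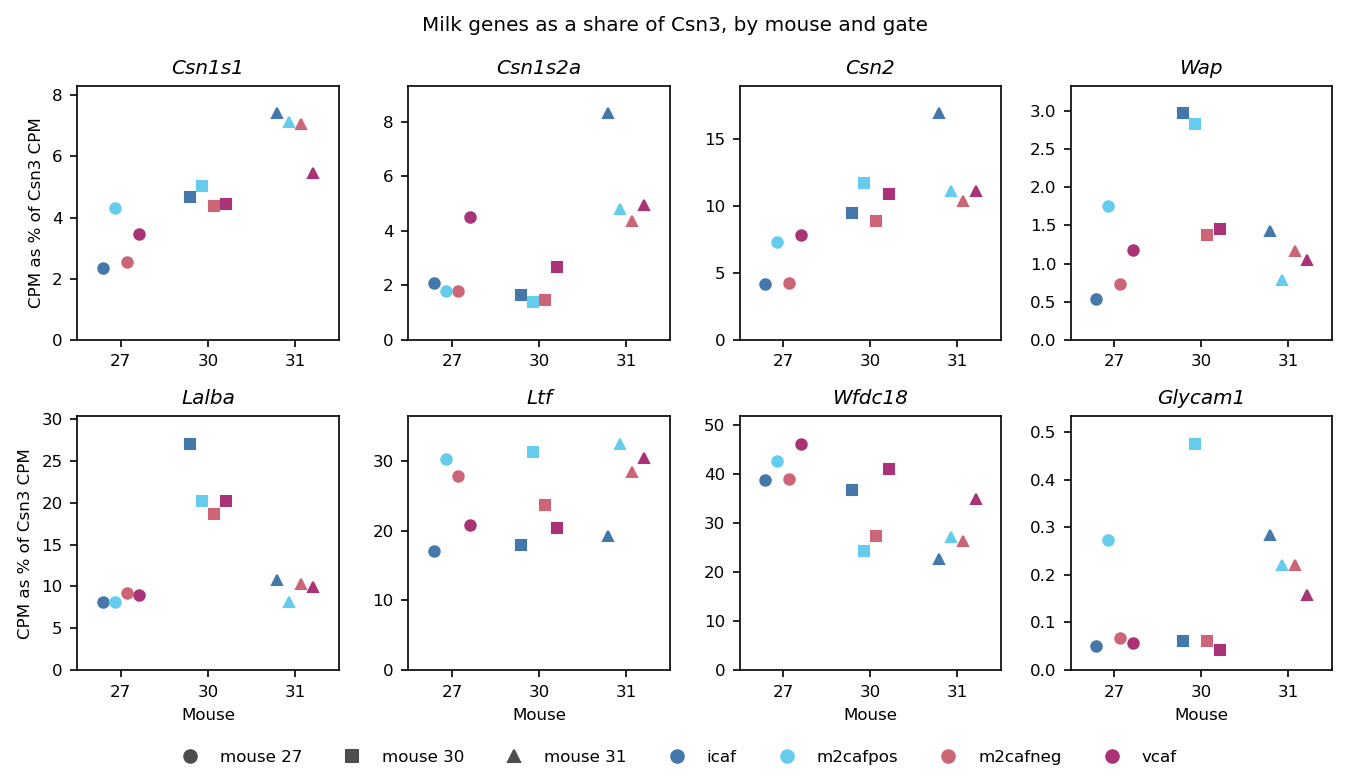
CPM of 8 milk genes as a percentage of the Csn3 CPM of the same library, by mouse, coloured by gate (each panel with its own axis from 0). Lalba lies at 18.7% to 27.1% in all 4 gates of mouse 30 and at 8.2% to 10.8% in the other mice, and Ltf is lowest in icaf and highest in m2cafpos in each mouse.

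A test of mouse with gate as a term found 7 of the 9 members to differ in level between the mice, against 4.71% of all genes (limma F test). Here, and in the same test relative to epithelial RNA, the gates of a mouse served as its replicates. The p-values thus set mouse differences against their spread across gates and do not measure the spread among animals. Mean Csn1s2a over the 4 gates was 64.2 CPM in mouse 27, 43.6 in mouse 30 and 213 in mouse 31 (limma, adjusted p = 0.00233), and mean Csn1s1 was 67.7, 90.1 and 269 CPM (0.00684). Csn2, Ltf, Glycam1, Csn3 and Lalba followed (adjusted p of 0.0089 to 0.0392), and Wap (0.203) and Wfdc18 (0.0902) did not pass. Each of the 9 was highest in mouse 31 by this mean. Of the 16 epithelial genes 12 differed too, with a median of 0.88 for mouse 31 against mouse 27 on the log2 scale, beside 1.21 for the milk genes and 0.02 for all genes. Without a filter on low values none of the 9 passed (limma, 8 with an unadjusted p under 0.05; 0.00829% of all genes passed).

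Relative to epithelial RNA, 5 of the 9 differed between mice (limma F test; 90% of all genes did). They were Csn1s1, Csn1s2a, Csn2, Wap and Lalba, whereas Csn3 did not pass (adjusted p = 0.892). Against mouse 27, mouse 31 was higher by 1.20 ± 0.35 for Csn1s1, 1.26 ± 0.35 for Csn1s2a and 1.19 ± 0.35 for Csn2 (limma, adjusted p of 0.0172 to 0.019). Lalba was lower in mouse 31 than in mouse 30 by -0.95 ± 0.35 (limma, adjusted p = 0.0083). With its own spread for each gene, chosen after seeing the data, 4 members passed (41.6% of all genes).

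Genes that regulate lactation did not move as one list. Of 14 tested, 8 were higher and 2 lower in vcaf than in icaf (limma), near the 46.1% higher and 13.9% lower among all genes. In m2cafneg 9 were higher and 1 lower than in m2cafpos, where 22.6% of all genes were higher and 3.51% lower. Gata3, a luminal transcription factor, rose from 70.6 CPM in icaf and 70.5 in m2cafpos to 365 in m2cafneg and 495 in vcaf. The prolactin receptor gene Prlr averaged 6.97 CPM in icaf, 8.92 in m2cafpos, 34.9 in m2cafneg and 50.4 in vcaf, and Elf5, a factor of the secretory lineage, 2.28, 1.88, 8.48 and 12.6 CPM. Both were called higher in vcaf than in icaf (limma, adjusted p = 0.000124 and 0.00128). Stat5a, which fibroblasts also express, was flatter at 29.4, 19.8, 39.5 and 47.5 CPM. Of the most abundant others, Nfib averaged 56.3 to 158 CPM over the gates, Id2 60.2 to 164 CPM and Akt1 56.0 to 69.5 CPM.

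Enzymes of milk fat and lactose synthesis did not follow the milk proteins as a list. Of 18 tested, 10 were higher and 6 lower in vcaf than in icaf (limma; 46.1% and 13.9% of all genes), with a median log2 fold change of 0.55 beside 2.59 for the milk genes and 0.36 for all genes. Btn1a1, whose product coats milk fat globules, rose by 2.63 ± 0.41 in vcaf against icaf (limma, adjusted p = 0.00016). B4galt1, the catalytic subunit of lactose synthase and a general Golgi enzyme, fell by 0.90 (limma, adjusted p = 1.36e-05), and Lpl, a lipase abundant in fibroblasts here, fell by 2.03. Mfge8 (3147 CPM in vcaf and 872 in icaf) and Plin2 (631 and 321 CPM) were higher in vcaf.

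Other secretory products of the gland moved with the milk genes. Of 18 tested, 16 were higher and 1 lower in vcaf than in icaf (limma; 46.1% and 13.9% of all genes) and 11 were higher in m2cafneg than in m2cafpos (22.6%). Trf, the gene of the iron carrier transferrin, averaged 2672 CPM in icaf, 2879 in m2cafpos, 12922 in m2cafneg and 17165 in vcaf. Spp1 (osteopontin) ran from 401 CPM in icaf to 3878 in vcaf, Lcn2 (lipocalin 2) from 209.7 to 1498 and Clu (clusterin) from 71.1 in m2cafpos to 373 in vcaf. In the tissue, luminal cells that sense hormones are a separate lineage: of their 6 genes tested, 3 were higher and 2 lower in vcaf than in icaf, a share of higher genes near the 46.1% of all genes. The lower ones were Ly6a, which belongs to the Ly6 family used for the icaf gate and averaged 1846 CPM in icaf and 39.5 in vcaf, and Esr1, at 47.8 and 6.03 CPM. Pgr had 0 reads in m2cafneg and averaged 2.87 CPM in icaf.

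Markers of some other cells moved with the milk genes as well and those of others did not. The part of these cells in the results was not tested. Of 8 basal and myoepithelial genes tested, 8 were higher in vcaf than in icaf and 6 in m2cafneg than in m2cafpos (limma). Of all genes 46.1% and 22.6% were higher in these comparisons. The basal list summed to 113 to 307 CPM in vcaf and 15.9 to 29.3 in icaf. Krt14, Krt17, Krt5 and Krt15 led it, with means of 88.1, 66.7, 28.7 and 11.9 CPM in vcaf. Of 10 macrophage and monocyte genes tested, 10 were higher in vcaf than in icaf (46.1% of all genes) and 9 in m2cafneg than in m2cafpos (22.6%). The list summed to 93.0 to 213 CPM in icaf and 150.7 to 234 in m2cafpos. In m2cafneg it summed to 599 to 972 CPM and in vcaf to 555 to 1344, mostly Cd14 with 749.6 CPM on average in vcaf. Endothelial genes summed to 168 to 337 CPM in vcaf and 12.7 to 41.2 in m2cafpos. In the adipocyte list 1 of 4 genes tested was higher in vcaf than in icaf (46.1% of all genes were). It was Fabp4, at 460.5 and 29.9 CPM, while Adipoq did not exceed 3.58 CPM in any library. Lymphocyte genes summed to no more than 5.53 CPM.

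**Figure D5:**
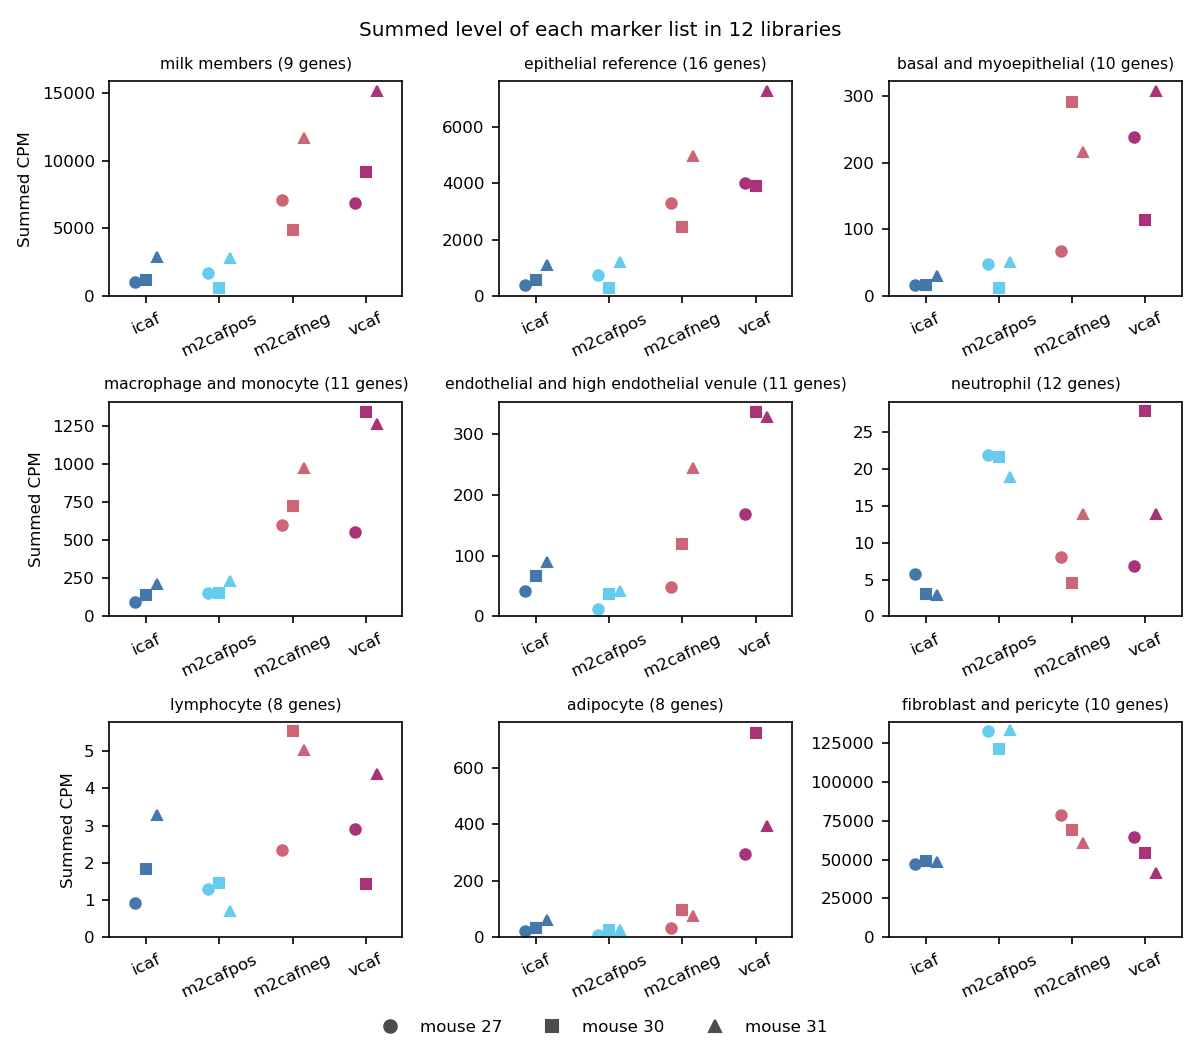
Summed CPM of the milk genes and of 8 marker lists in the 12 libraries, by gate, with 1 symbol per mouse and each panel on its own linear axis from 0. Milk, epithelial, basal and macrophage sums are all higher in m2cafneg and vcaf than in icaf and m2cafpos, and the neutrophil sum reaches 27.8 CPM at most.

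Ltf and Glycam1 are also made by neutrophils and by high endothelial venules, and the part of these cells in the results was not tested. Ltf ran from 92.7 to 2328 CPM, whereas 12 neutrophil genes without Ltf summed to 2.85 to 5.74 CPM in icaf, 4.52 to 13.8 in m2cafneg, 18.9 to 21.9 in m2cafpos and 6.85 to 27.8 in vcaf. Ngp, Camp, Ly6g and S100a9 did not exceed 0.686 CPM in any library, and the most abundant gene of the list, Mmp9, averaged 14.4 CPM in m2cafpos and 1.93 CPM in icaf. Beside Glycam1, the genes of high endothelial venules Chst4, Madcam1 and Fut7 averaged 0.0015, 0.061 and 0.189 CPM, and Madcam1 was highest in m2cafpos with 0.21 CPM on average.

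Over the 12 libraries the genes most like Csn3 were epithelial. Among 8984 other genes with a mean of at least 10 CPM, the highest Pearson correlations with Csn3 on log2(CPM + 1) were those of Ehf (0.998), an epithelial ETS factor, Mapk13 (0.997), a stress kinase, Prss8 (0.996), an epithelial membrane protease, Cldn3 (0.995), Arhgap8 (0.995) and Plet1 (0.994). Ehf averaged 26.1 CPM in icaf, 27.3 in m2cafpos, 121 in m2cafneg and 161 in vcaf. The members themselves were less alike, from 0.977 for Ltf and 0.976 for Wfdc18 to 0.883 for Wap and 0.704 for Glycam1. Csn3 correlated with the epithelial sum at 0.992, with the macrophage sum at 0.929, with the basal sum at 0.891 and with the neutrophil sum at 0.113. These are descriptions over 12 libraries that share 3 mice and 4 gates.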

How the data were processed

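RNA was sequenced from 12 libraries (4 gates of 3 mice, grouped by their titles; the title 27_vacf was read as vcaf). The authors deposited 1 table of CPM, counts per 1000000 reads assigned to genes. In the submitters' processing notes bcl2fastq, the DRAGEN software and the mm10 build are named. Which program counted reads, and whether by strand, is not given in the sources used here. Repeated lines (287, with the same values) were dropped, which left 55487 genes. In each library 100% of values were whole multiples of 1 read within 0.001 reads, so reads could be recovered for edgeR. The intervals given for the fit without moderation come from the spread of libraries within gates, whereas depth covers counting error only.

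The 15456 genes that reached 1 CPM in 3 or more libraries entered the tests. On log2(CPM + 1), limma 3.58.1 (R 4.3.3; eBayes with trend, two-sided) fitted the 4 groups with 1 shared estimate of the spread, with Benjamini-Hochberg adjustment over these genes and a threshold of 0.05. The same fit was made on values less the log2 epithelial sum, and an F test of mouse with gate as a term. Mouse numbers pair libraries, since they name the animal: deviations from gate means correlated over genes with a median r of 0.293 over 18 same-mouse pairs (0.0843 to 0.452; 17 over 0.1). Alternatives were a pseudocount of 0.1, no filter, median-of-ratios scaling, mouse as a block, an epithelial covariate, Epcam alone as reference, edgeR 4.0.16, leaving out each library and, added after seeing the data, a fit without moderation. The limma and edgeR tests of vcaf against icaf and the F test of mouse were tried on simulated counts. Those libraries were drawn independently, with no mouse effect in the gate tests. The fits relative to epithelial RNA, with the block, with the covariate and without moderation were not simulated. Positions and lengths came from GENCODE M21 (GRCm38), promoters from RefSeq.

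The members and the 13 gene lists were chosen with earlier results of these data known. Named were all 9 members, up to 4 members of each list with the highest mean CPM, the 6 genes most like Csn3 with a mean of at least 10 CPM, and genes between the caseins; Elf5, Stat5a, Btn1a1, Pgr, Adipoq, Pdgfrb, Prlr as a regulator, the neutrophil genes other than the most abundant and the venule genes were named after their values were seen.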

Additional observations from a re-analysis of the deposited data

How the results depend on the processing

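Counts are of the 9 members with an adjusted p under 0.05 in limma unless said otherwise. Leaving out 1 library at a time gave 5 to 9 for vcaf against icaf, 6 to 8 for vcaf against m2cafpos, 4 to 8 for m2cafneg against icaf, 3 to 7 for m2cafneg against m2cafpos, 0 to 0 for both other pairs and 5 to 8 between mice. Relative to epithelial RNA it gave 1 to 1 for vcaf against icaf and vcaf against m2cafpos, 0 to 1 for m2cafneg against icaf (1 without m2cafneg of mouse 31 or m2cafpos of mouse 30) and for m2cafneg against m2cafpos, and 0 to 0 for the others. The replicate block (mouse) gave 1 for vcaf against m2cafneg, 9 for m2cafneg against icaf, 8 for m2cafneg against m2cafpos and, relative to epithelial RNA, 1 for m2cafneg against icaf (Glycam1, lower); it moved no other count by over 1.5 times. In edgeR on recovered reads, 5 members were higher in vcaf than in icaf (47.2% of all genes called), 5 in vcaf than in m2cafpos (44.7%) and 3 in m2cafneg than in m2cafpos (13.5%). Without a filter the count was 3 for m2cafneg against m2cafpos and 0 between mice. With a pseudocount of 0.1, it was 0 relative to epithelial RNA for vcaf against icaf. Without moderation, relative to epithelial RNA, it was 2 for vcaf against icaf, 2 for vcaf against m2cafpos and 4 between mice. Median-of-ratios scaling shifted log2 fold changes by -0.56 to 0.14 and turned no called member.

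An epithelial covariate, the mean log2(CPM + 1) of the 16 epithelial genes as a term beside gate, turned directions. That mean is itself higher in vcaf and m2cafneg than in icaf and m2cafpos. Called were then 3 for vcaf against icaf, 4 for vcaf against m2cafpos and 1 for each of vcaf against m2cafneg, m2cafneg against icaf and m2cafneg against m2cafpos, all lower in the first gate, and 1 higher for m2cafpos against icaf. The values below are of members whose sign changed and that passed with or without the covariate, so not all of them passed with it. In vcaf against icaf the values were -2.29 for Csn1s1, -3.50 for Csn1s2a, -1.64 for Csn2, -0.81 for Csn3, -0.89 for Ltf and -0.053 for Wfdc18. In vcaf against m2cafpos they were -2.15 for Csn1s1, -2.62 for Csn1s2a, -1.38 for Csn2, -0.44 for Csn3, -1.29 for Ltf and -2.90 for Glycam1, and in vcaf against m2cafneg -0.41 for Ltf. In m2cafneg against icaf they were -3.69 for Csn1s2a, -0.64 for Csn3, -0.48 for Ltf and -0.36 for Wfdc18, and in m2cafneg against m2cafpos -2.80 for Csn1s2a, -0.28 for Csn3 and -0.88 for Ltf. Changes of sign in values that passed under neither setting are not counted here. Depth limits Glycam1 most, with 16 reads in its lowest library.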
